A study of Mus musculus with 24 samples.

Results

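The enzymes of the urea cycle were followed through RNA of extracellular vesicles, the membrane-enclosed particles that cells shed into blood, taken from mouse plasma. The 6 genes Nags, Cps1, Otc, Ass1, Asl and Arg1 were picked by symbol out of 21960 genes in the table. They were picked because Cps1 and Ass1 had shown a larger effect of bile duct ligation at day 15 than at day 8, so that difference is described here and not tested. Animals were male C57BL/6J mice, an inbred strain, in 4 groups of 6: ligation or sham operation, each sampled 8 or 15 days after surgery, with 1 library per animal. Ligation closes the duct that drains bile from the liver. All groups shared strain and sex, and no age was given in the sources used here. Vesicles were precipitated from plasma with a commercial reagent (ExoQuick), and the labels carry liver as tissue beside extracellular vesicles as site.

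The urea cycle turns ammonia, which is toxic to the brain, into urea for excretion by the kidney, and in mammals it runs in full mainly in the hepatocytes around the portal vein. Its first steps lie in mitochondria: N-acetylglutamate synthase (Nags) makes the activator that carbamoyl-phosphate synthetase 1 (Cps1) needs, Cps1 joins ammonia and bicarbonate, and ornithine transcarbamylase (Otc) makes citrulline. In the cytosol argininosuccinate synthase (Ass1) adds aspartate, argininosuccinate lyase (Asl) releases arginine and arginase 1 (Arg1) splits off urea. Intestinal epithelium also holds Cps1 and Otc, kidney tubules use Ass1 and Asl to make arginine, and macrophages can express Arg1, so none of these transcripts belongs to the hepatocyte alone.

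Total counts per library ranged between 101733 and 937963, so 1 count stood for about 1 to 10 CPM (counts scaled to library size). The count filter kept 4112 genes, and of the urea cycle enzymes it kept Cps1 and Ass1. The other 4 were taken from a model of all 18710 genes with a count. Gene levels are normalised CPM, that is CPM divided by a library scaling factor, and effects of ligation are log2 fold changes with a standard error (SE). More vesicles from 1 cell type and more of a transcript per vesicle cannot be told apart in such libraries.

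The start regions of 3 of the enzymes show how unlike the sequences in front of these genes are. Ass1, Otc and Nags are shown because promoter sequences were found by symbol for only these 3 of the 6. Each stretch is the 250 bases before the transcription start, read 5′ to 3′ on the gene's own strand, from RefSeq (GRCm38.p6): chr2:31470020-31470269 for Ass1, chrX:10252055-10252304 for Otc and chr11:102145263-102145512 for Nags, all on the plus strand. The RefSeq start of Ass1 lies downstream of the start in the gene model used for the counts' coordinates, so the last 63 bases of its stretch lie inside that model. Capitals mark matches on either strand to the GC box GGGCGG or to TTNNGNAA, a loose form of the site bound by C/EBP factors.
Ass1: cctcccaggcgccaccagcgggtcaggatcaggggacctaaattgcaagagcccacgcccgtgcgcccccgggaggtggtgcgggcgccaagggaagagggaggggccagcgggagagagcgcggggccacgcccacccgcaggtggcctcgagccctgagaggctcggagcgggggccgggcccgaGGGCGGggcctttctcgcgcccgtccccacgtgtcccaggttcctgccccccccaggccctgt
Otc: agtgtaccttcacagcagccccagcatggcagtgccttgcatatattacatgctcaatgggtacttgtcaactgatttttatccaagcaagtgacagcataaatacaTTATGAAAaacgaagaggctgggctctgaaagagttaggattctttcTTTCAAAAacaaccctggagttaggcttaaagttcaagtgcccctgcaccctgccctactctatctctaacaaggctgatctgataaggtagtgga
Nags: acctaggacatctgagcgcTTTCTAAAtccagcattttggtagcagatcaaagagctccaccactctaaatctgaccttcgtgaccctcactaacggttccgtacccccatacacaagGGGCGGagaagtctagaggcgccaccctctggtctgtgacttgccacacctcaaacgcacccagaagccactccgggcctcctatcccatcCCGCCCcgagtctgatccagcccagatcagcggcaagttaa
The Ass1 stretch was 75.6% G and C, with 1 GC box and no match to TTNNGNAA. The Otc stretch was 43.6% G and C, with 2 matches to TTNNGNAA and no GC box. The Nags stretch lay between them at 55.6%, with 2 GC boxes and 1 match to TTNNGNAA. Over 32851 promoters of the same length the median was 52.4% (quartiles 45.2 to 61.2), 32.7% held a GC box and 36.8% held TTNNGNAA. The TATA box TATAAA (12.4% of all promoters), CCAAT (33.8%), the glucocorticoid receptor core TGTTCT (16.1%), the CREB site TGACGTCA (1.55%) and the HNF4 core CAAAGT (12.6%) had no match in the 3 stretches. These motifs did not overlap each other, and a match is a run of letters, not a measured binding site.

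Transcripts of Cps1, Ass1 and Arg1 were higher in vesicle RNA after ligation when both days were averaged. At day 15 every ligated animal had more of each of these 3 than any sham animal, and at day 8 the groups overlapped for all 6 enzymes. Groups of day 15 lay apart in this way for 1.62% of the 18710 genes with a count and 2.41% of the filtered genes. At day 15 edgeR called 3.53% of filtered and 2.96% of unfiltered genes higher, and at day 8 it called 2.77% and 1.41%. Cps1 and Ass1 were picked in part on their values at these days, so nothing is read from their place there. Otc and Asl were called higher by 1 of 3 tests, and Nags by none. Among the 4112 filtered genes 7.1% were called higher in the averaged effect (292 genes, median log2 fold change of all tested genes 0.00), and Cps1 and Ass1 were both among them. That count supports nothing, since Cps1 passed the filter through the ligated animals of day 15, where it is high, and the averaged effect is the mean of the effects at the days used to pick the pair. Without a filter 4.37% of 18710 genes were called higher, and 5 of the 6 enzymes were. That unfiltered model gave Cps1 an SE of 0.38, against 0.80 in the filtered one, so an exact permutation test over samples and DESeq2 on the same 18710 genes stand beside it. The permutation test called 2.48% of the genes higher and 3 of the 6 enzymes. Cps1 and Ass1 are in both of these counts as well. The averaged effect holds the days used to pick the pair, so neither count adds support for them.

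**Figure D1:**
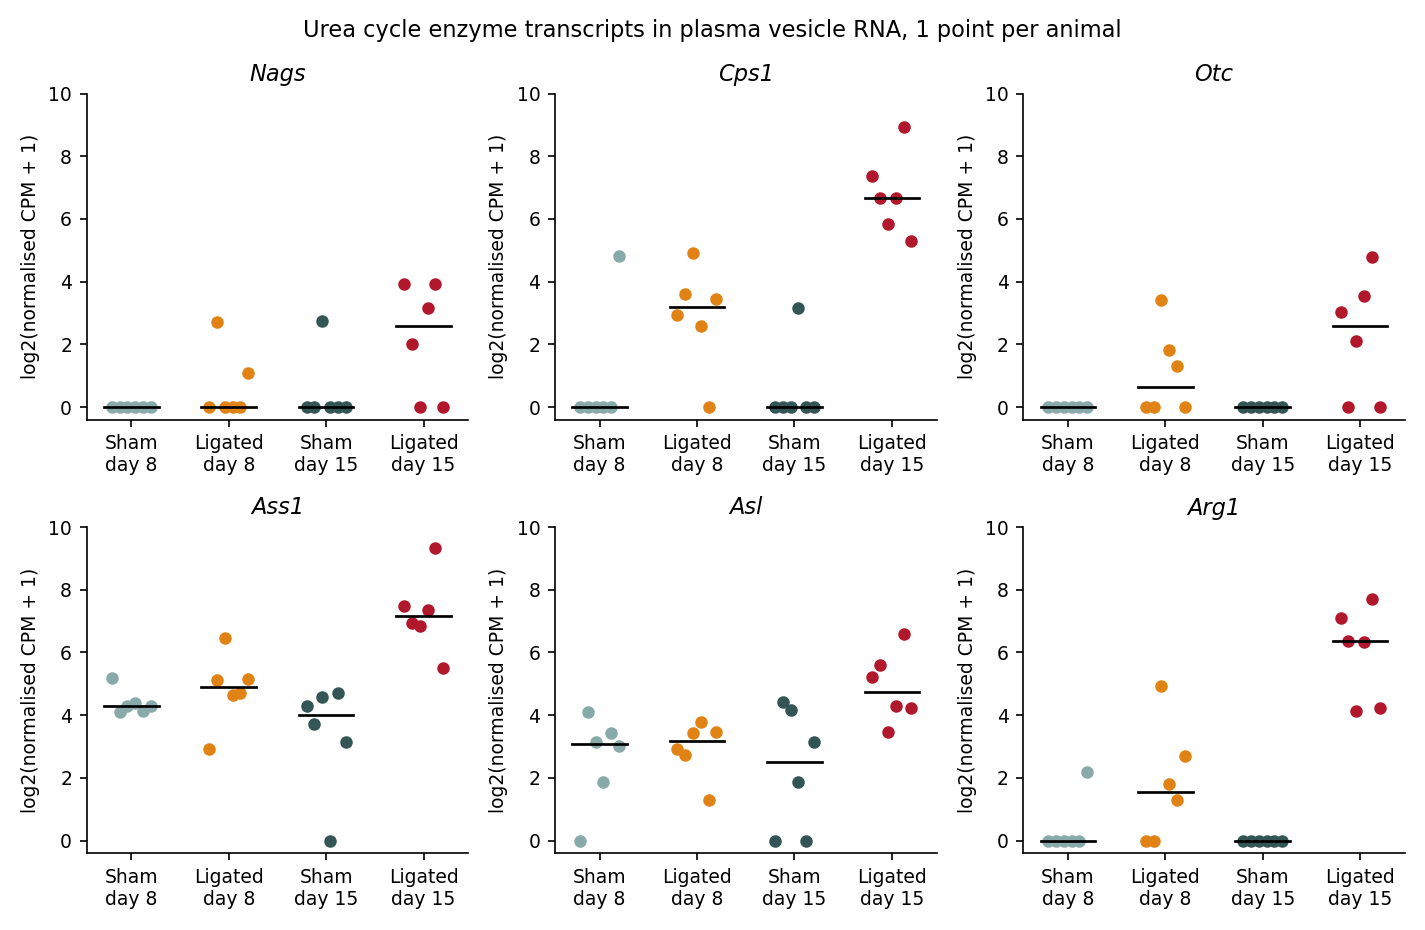
Levels of the 6 enzymes in each of the 24 libraries, as log2 of normalised CPM plus 1, by group (points, animals 1 to 6 from left to right within a group; lines, medians). For Cps1, Ass1 and Arg1 the 6 ligated animals of day 15 all lie above the 6 sham animals of that day, while at day 8 the groups overlap for every enzyme.

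Nags (ENSMUSG00000048217, GRCm38 chromosome 11, 102145513 to 102149477, plus strand), which makes the activator of Cps1, was barely detected. Its counts summed to 14 over the ligated and 1 over the sham animals of day 15, and to 2 and 0 at day 8. Ligated animals of day 15 had 0, 5.51 and 14.4 normalised CPM (lowest, median and highest), and 3 of 6 lay above all sham animals. The ratio of normalised counts at day 15 was 10.9 (95% exact interval 1.67 to 463), an interval that covers counting error only. In the averaged effect Nags did not pass edgeR's test (adjusted p = 0.128), the exact permutation test (p = 0.0324, adjusted p = 0.293) or DESeq2 (adjusted p = 0.619). Without sham animal 3 of day 15, which held the only sham count, the adjusted p was 0.0463 with edgeR and 0.222 with the exact permutation test. At day 15 alone edgeR's adjusted p was 0.176. An antisense gene, Gm11586, overlaps Nags, and the labels and file do not say whether strand entered the counting.

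Cps1 (ENSMUSG00000025991, chromosome 1, 67123026 to 67231259, plus strand) is the most abundant protein of liver mitochondria and sets the entry of ammonia into the cycle. In ligated animals of day 15 it had 38.1, 102 and 490 normalised CPM (lowest, median and highest), and 159 ± 168 on average (SD, n = 6). In sham animals of day 15 the lowest and the median were 0 and the highest was 8.01, with 3 counts in all, in animal 4. The groups of day 15 did not overlap. At day 8 ligated animals had 0, 8.28 and 29.2 normalised CPM. Sham animals of day 8 had 0 in 5 animals and 27.0 in animal 6, whose 23 counts were all that the group held. That sham animal stood above 5 of the 6 ligated animals of day 8, of which 1 had no count.

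The averaged effect of ligation on Cps1 was 3.21 (SE 0.80, edgeR adjusted p = 0.00968), and the exact permutation test (853776 arrangements) gave p = 9.84e-05 (adjusted p = 0.0105). DESeq2 on all genes gave an adjusted p of 0.00938. Leaving out 1 library at a time kept the edgeR effect between 2.83 and 5.43. The highest was fitted without sham animal 6 of day 8, which leaves the sham animals of that day at 0. The averaged effect holds the days used to pick the gene, so these calls add no support for it. The value per day is part of what the gene was picked for and is given as a description. It was 0.20 (SE 1.03) at day 8 and 6.22 (SE 1.01) at day 15. In counts, the ratio of ligated to sham was 0.990 (95% exact interval 0.526 to 1.86) at day 8 and 92.0 (31.2 to 448) at day 15. Without ligated animal 5 the ratio at day 15 was 48.5 (16.3 to 238).

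Otc (ENSMUSG00000031173, chromosome X, 10252305 to 10321024, plus strand), whose product citrulline leaves the mitochondrion, had no count in any of the 12 sham animals. Ligated animals of day 15 had 0, 5.25 and 26.3 normalised CPM, from 18 counts in 4 of 6 animals. Those of day 8 had 0, 0.736 and 9.73, from 5 counts in 3 of 6. Against a floor of 3 counts over the sham group, Otc was at least 4.69-fold higher at day 15 (at least 2.29-fold without ligated animal 5) and at least 1.73-fold higher at day 8. In the averaged effect edgeR gave an adjusted p of 0.00194, but the exact permutation test gave 0.115 (p = 0.00551) and DESeq2 0.199. With the animal number as a block, edgeR's adjusted p was 0.0558. At day 15 alone the adjusted p was 0.0152 with edgeR, 0.461 with the exact permutation test and 0.411 with DESeq2. The permutation test called 0% of all genes at day 15 (1873 at unadjusted p under 0.05). The smallest p it can give there, 0.00216, had an adjusted p of 0.118, so it could call no gene at that day. Without ligated animal 5 edgeR's adjusted p at day 15 was 0.147. At day 8 edgeR's adjusted p was 0.349.

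Ass1 (ENSMUSG00000076441, chromosome 2, 31470207 to 31520672, plus strand), the first enzyme of the cytosolic part, was the member most often seen in sham animals. It had counts in 6 of 6 sham animals at day 8 and 5 of 6 at day 15. Ligated animals of day 15 had 43.9, 143 and 639 normalised CPM (210 ± 215, SD, n = 6), and the sham animals of that day 0, 15.4 and 24.9. The groups of day 15 did not overlap. At day 8 ligated animals had 6.62, 29.3 and 87.5, and sham animals 16.2, 18.6 and 35.2. Those groups overlapped, with 1 ligated animal above all sham animals.

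The averaged effect on Ass1 was 2.37 (SE 0.41, edgeR adjusted p = 0.000264). The exact permutation test gave p = 0.000916 (adjusted p = 0.0389), and DESeq2 an adjusted p of 1.38e-05. The permutation call was close to the threshold: leaving out 1 library moved its adjusted p above 0.05 in 12 of 24 cases, up to 0.0692 without ligated animal 5 of day 15. As for Cps1, the averaged effect holds the days used to pick the gene, so these calls add no support for it. Described by day, the effect was 0.80 (SE 0.57) at day 8 and 3.95 (SE 0.58) at day 15. The ratio of normalised counts was 1.67 (95% exact interval 1.19 to 2.37) at day 8. At day 15 it was 17.4 (11.3 to 28.4), and 9.41 (5.99 to 15.5) without ligated animal 5.

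Asl (ENSMUSG00000025533, chromosome 5, 130011258 to 130029247, minus strand), which cleaves argininosuccinate, was low in all groups. Ligated animals of day 15 had 9.97, 27.3 and 95.7 normalised CPM and sham animals 0, 5.27 and 20.4, with 3 of 6 ligated animals above all sham animals. At day 8 ligated animals had 1.47, 8.17 and 12.6 and sham animals 0, 7.48 and 16.2, and no ligated animal lay above all sham animals. The effect at day 8 was 0.10 (SE 0.52, edgeR adjusted p = 1). At day 15 it was 2.34 (SE 0.51, edgeR adjusted p = 0.000335), with adjusted p = 0.0197 by DESeq2. The exact permutation test, which could call no gene at day 15, gave an adjusted p of 0.281. Without ligated animal 5 the effect at day 15 was 1.80 (edgeR adjusted p = 0.0631). The averaged effect was 1.22 (SE 0.38), with adjusted p = 0.0286 by edgeR, 0.159 by DESeq2 and 0.272 by the exact permutation test, and 0.0511 by edgeR with the animal number as a block. From day 8 to day 15 in sham animals Asl differed by -0.20 (SE 0.61, edgeR adjusted p = 1).

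Arg1 (ENSMUSG00000019987, chromosome 10, 24915221 to 24927484, minus strand), the enzyme that releases urea, had no count in the sham animals of day 15. All 6 ligated animals had counts, with 16.6, 80.6 and 208 normalised CPM (90.0 ± 73.3, SD, n = 6), and the groups did not overlap. Against the floor of 3 counts over the sham group it was at least 50.3-fold higher, and at least 34.7-fold without ligated animal 5. Adjusted p at day 15 was 2.27e-24 with edgeR without a filter and 4.01e-05 with DESeq2. The exact permutation test gave p = 0.00216, the smallest that 6 against 6 can give, and an adjusted p of 0.118. At day 8 ligated animals had 0, 2.00 and 29.2 normalised CPM from 14 counts, and sham animals had 3 counts, all in animal 6, the animal that also held the Cps1 counts. The ratio at day 8 was 4.83 (95% exact interval 1.35 to 26.2), with an edgeR adjusted p of 0.211. Without sham animal 6 it was at least 3.47-fold and the adjusted p was 0.0116 with edgeR and 0.789 with the exact permutation test (p = 0.0606). In the averaged effect Arg1 was called by edgeR (adjusted p = 2.03e-14), the exact permutation test (p = 0.000164, adjusted p = 0.0136) and DESeq2 (adjusted p = 5.61e-05).

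The larger effect at day 15 was what the pair Cps1 and Ass1 was picked for, and its values follow without a test. The effect at day 15 exceeded that at day 8 by 6.03 (SE 1.61) for Cps1, by 3.16 (SE 0.84) for Ass1 by 2.24 (SE 0.76) for Asl and by 1.00 (SE 1.68) for Nags. The fitted value for Arg1 was 5.99 (SE 1.68), which is no bound because its sham animals of day 15 were at 0, and Otc gave no usable value because all its sham animals were. For this difference edgeR called 0% of the 4112 genes (233 at unadjusted p under 0.05; 51 genes without a filter and 1 with DESeq2). The Cps1 value rested on single sham libraries. Without sham animal 6 of day 8 the other sham animals of that day had no Cps1 count. The fitted effect of ligation on Cps1 at day 8 was then 4.66 (SE 1.76) in place of 0.20. The fitted difference between days was 1.55 (SE 4.49), and as for Arg1 these fitted values are no bounds. Against the floor of 3 counts, the Cps1 ratio at day 8 without that animal was at least 5.45. Without sham animal 4 of day 15, which held the 3 sham counts of that day, the fitted difference was 8.80, again no bound. The Ass1 difference stayed between 2.39 and 3.50 when any 1 library was left out, the lowest without ligated animal 5 of day 15.

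**Figure D2:**
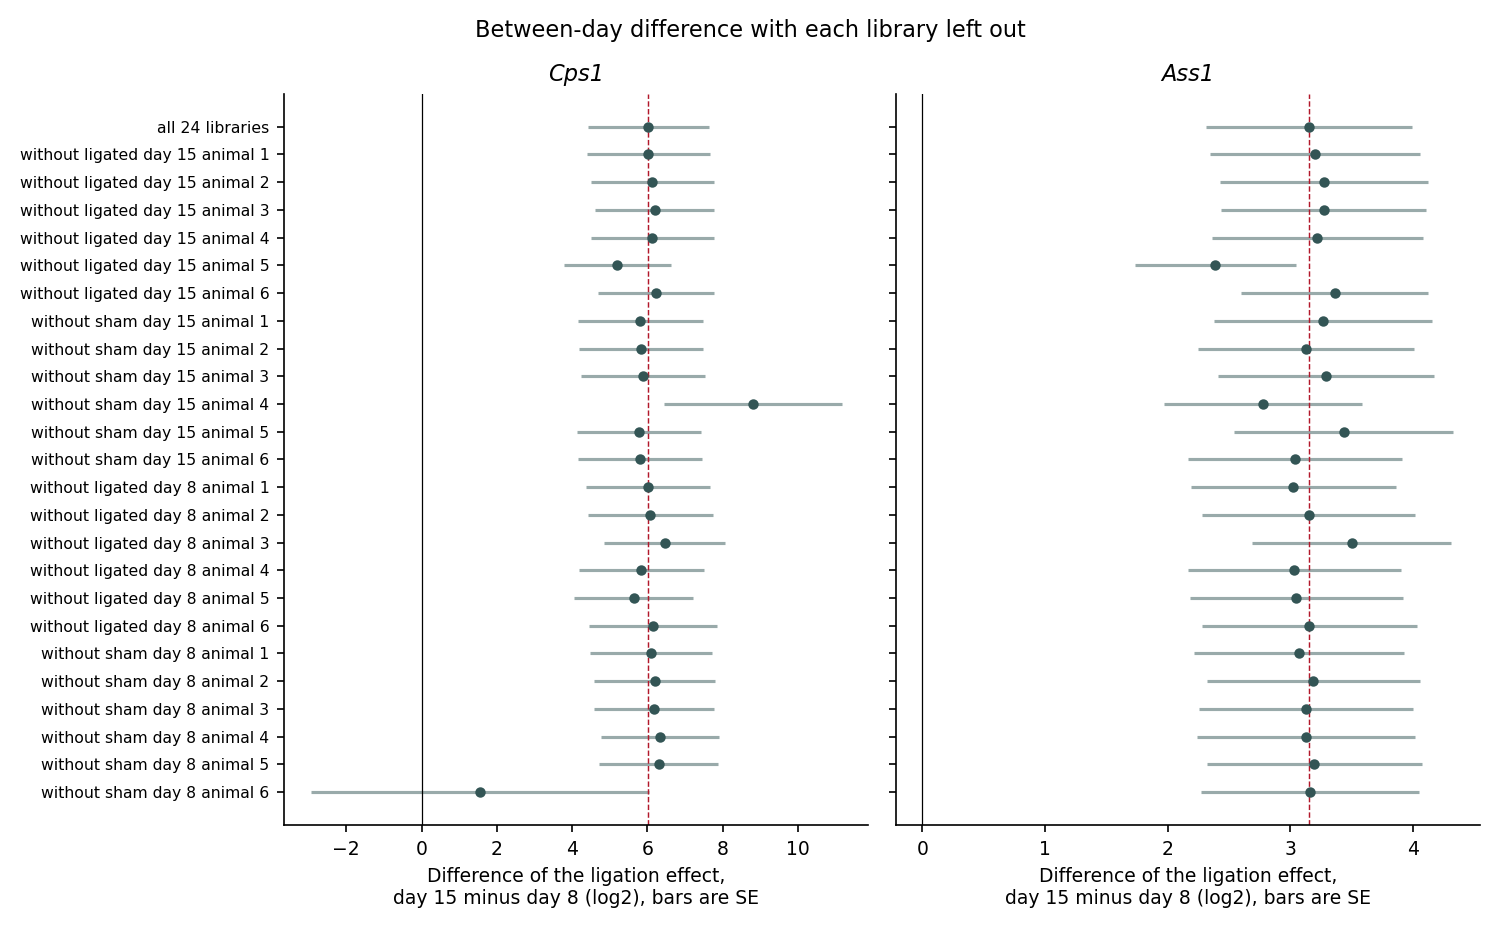
Difference of the ligation effect, day 15 minus day 8 (log2), for Cps1 and Ass1 with all 24 libraries and with each library left out (points, edgeR estimates; bars, SE; dashed line, all libraries). The Cps1 estimate moves from 6.03 to 1.55 without sham animal 6 of day 8 and to 8.80 without sham animal 4 of day 15. Either omission leaves the sham animals of that day with no Cps1 count, so these fitted values are no bounds. The Ass1 estimate stays between 2.39 and 3.50.

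Sham animal 6 of day 8 differed from its group in other ways. It had 132 Cps1 counts per 1000 counts of a list of 36 hepatocyte genes. That list, at 204 normalised CPM, had rank 3 of the 6 sham animals. C3 made 361 of the list's 659 counts in sham animals of day 8, and animal 6 held 49 of those 361. For Alb it held 28 of 36 counts and for Mat1a 6 of 6, but for Trf 31 of 125 and for Hpx 0 of 1. Its 16 periportal genes summed to 43.4 normalised CPM (13.0 to 26.4 in the other 5) and its 12 platelet genes to 7793 (951 to 4564). Its small intestine list stood at 11.7, within the range of the others (1.33 to 17.6), and the enterocyte gene Fabp2 had 0 counts. The part of these transcripts in its Cps1 counts was not tested. Depth at day 8 also went with the animal number, since libraries 4 to 6 were deeper than 1 to 3. In the shallower libraries Cps1 had 15.7 ± 11.9 normalised CPM after ligation (SD, n = 3) and 0 in the sham animals. In the deeper ones it had 5.00 ± 4.97 and 8.99 ± 15.6. Ass1 had 42.5 ± 41.2 against 23.3 ± 10.4 in the shallower and 27.8 ± 5.64 against 18.4 ± 1.81 in the deeper libraries. With a term for depth at day 8 the averaged effect was 3.19 for Cps1 and 2.37 for Ass1, both called, with the limit given above for the averaged effect.

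Per kilobase of gene model, the enzymes differed widely in level in the ligated animals of day 15. Ass1 had 87.1 ± 89.1 normalised CPM per kilobase (SD, n = 6), Arg1 40.4 ± 32.9 and Cps1 28.6 ± 30.3. Asl had 7.79 ± 6.55, Nags 2.33 ± 2.35 and Otc 1.87 ± 2.34. The spreads over animals were as large as most steps in this order, but within animals it was steadier. Ass1 lay above Arg1 in 6 of 6 animals, Arg1 above Cps1 in 5 of 6, Cps1 above Asl in 6 of 6 and Asl above Nags in 6 of 6. Nags lay above Otc in 3 of 6, so this pair was not ordered. Dividing by the longest transcript in place of all exons gave 2.64 for Otc and 2.44 for Nags and left the order of the other 4.

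**Figure D3:**
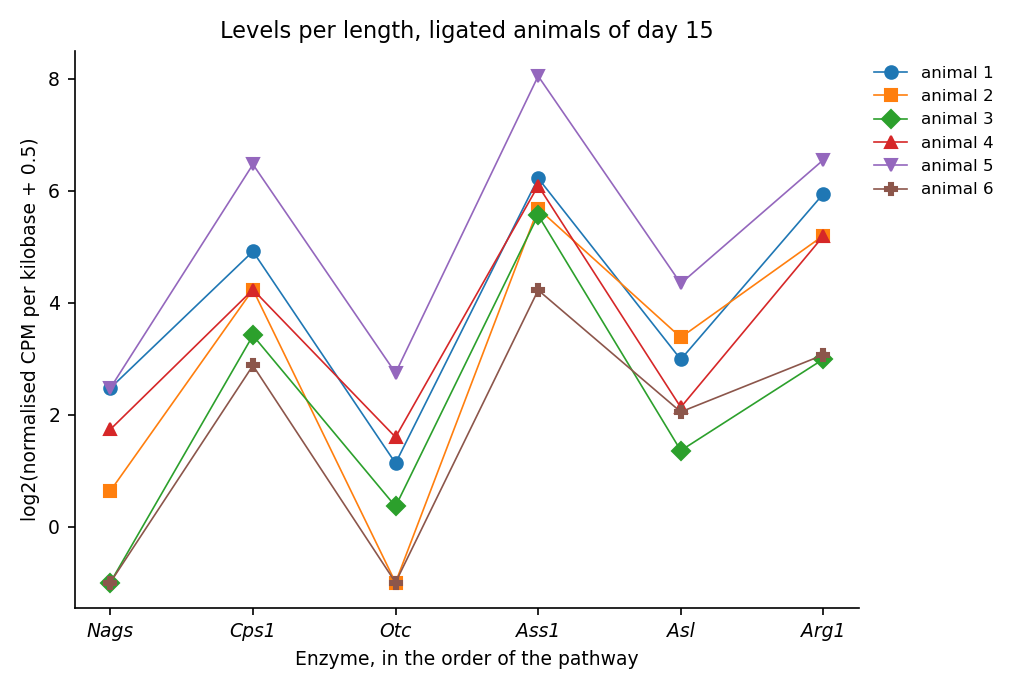
Level per length of each enzyme in the 6 ligated animals of day 15, as log2 of normalised CPM per kilobase plus 0.5, in pathway order (1 line per animal; a value of -1 means no count). Every animal peaks at Ass1, and animal 5 is highest or level with the highest at each enzyme.

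Hepatocyte transcripts were followed as a group. Of the 36 hepatocyte genes, which encode plasma proteins and liver enzymes, the filter kept 26 and all 26 were called higher in the averaged effect (median 6.07). Of these, 22 had fewer than 10 counts in every sham library and so passed through the ligated ones, which largely fixes that count. The summed level of all 36 genes was 4941 to 35381 normalised CPM in ligated and 274 to 752 in sham animals of day 15. At day 8 it was 693 to 8486 and 120 to 757. In sham animals of day 15 C3 alone made 557 of the list's 809 counts, and 12 of the 36 genes were at 0. Ligated animal 5 of day 15 had the highest sum of this list (4941 to 17747 in the other 5) and the highest level of each of the 6 enzymes. Animals of that group fell in the same order for Cps1, for Ass1 and for the hepatocyte list.

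Relative to the counts of the hepatocyte list the enzymes did not all behave alike. Per 1000 counts of the list, ligated animals had 3.73 ± 2.66 Cps1 counts at day 8 and 9.57 ± 2.19 at day 15 (SD, n = 6 each). Arg1 went from 1.85 ± 1.81 to 5.58 ± 1.99. Ass1 had 17.2 ± 12.1 at day 8 and 13.3 ± 4.21 at day 15, and Asl 3.84 ± 2.51 and 2.60 ± 1.06. Otc had 0.734 and 0.430, and Nags 0.574 and 0.356, each with a spread as large as its mean or nearly so. In sham animals, where C3 made most of the list's counts, Ass1 was far more frequent relative to the list, with 87.7 ± 37.0 at day 8 and 37.4 ± 30.4 at day 15. Asl likewise had 35.9 ± 28.1 in sham animals of day 8. At day 8 Ass1 averaged 35.2 normalised CPM in ligated and 20.8 in sham animals, and Asl 7.66 and 7.28. Their ratios at day 8 therefore hold much of a level also seen in sham animals. The Cps1 and Arg1 ratios of ligated animals at day 8 rested on 22 and 14 counts. The part of these counts that came from hepatocytes was not tested. These ratios are descriptions, and their difference between days was part of what chose the genes.

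**Figure D4:**
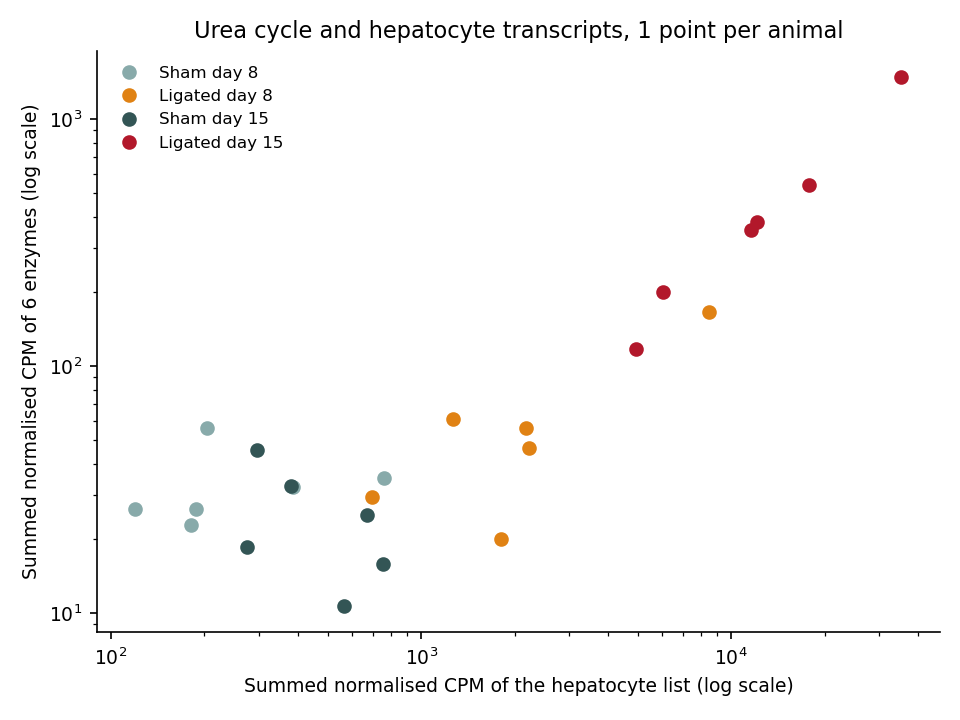
Summed level of the 6 enzymes against the summed level of 36 hepatocyte genes in each of the 24 libraries (normalised CPM, both axes on a log scale; colours, groups). Ligated animals of day 15 run from 117 to 1473 for the enzymes along a rising line, while sham animals sit between 10.7 and 56.3 with no clear trend.

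Genes whose level ran most like Cps1 and Ass1 over the 12 ligated libraries were other liver transcripts. Only these 2 enzymes had 10 or more counts in 6 ligated libraries. For Cps1 the most alike was Mat1a, which makes S-adenosylmethionine in liver, with a Pearson r of 0.99 (0.97 within day 8, 0.98 within day 15). It was followed by Serpina3k (0.98), the transferrin gene Trf (0.97), Apoa1 (0.97) and Serpina1b (0.97). For Ass1 the most alike was Gnmt, a methyltransferase that uses S-adenosylmethionine, with 0.97 (0.91 and 0.97 within days). Next came Cyp2e1 (0.96), the plasminogen gene Plg (0.96), Mia2 (ENSMUSG00000021000, 0.95) and the ceruloplasmin gene Cp (0.95). The points share libraries and depth, and these values describe likeness without a test.

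Genes around the cycle were read against the 7.1% of all tested genes that were called higher in the averaged effect. Of 18 enzymes of arginine, ornithine and polyamine metabolism, 7 were tested, 2 were called higher and 0 lower (median 0.16). Sat1, which acetylates polyamines for export, rose by 0.85 (SE 0.13, edgeR adjusted p = 6.84e-05), and Azin1, which frees ornithine decarboxylase from its inhibitor, by 0.70 (SE 0.23, adjusted p = 0.0439). The mitochondrial arginase Arg2 had 5 and 1 counts over the ligated and sham animals of day 8 and 5 and 2 at day 15. Of 18 enzymes of ammonia, glutamine and glutamate, 4 were tested and 1 was called higher (median 0.31). This was Glud1, glutamate dehydrogenase, which releases ammonia from glutamate in mitochondria. It rose by 0.89 (SE 0.16, edgeR adjusted p = 0.000277), with 0.47 (SE 0.22, adjusted p = 0.319) at day 8 and 1.31 (SE 0.22, adjusted p = 0.000244) at day 15. Glutamine synthetase (Glul), which takes up ammonia in pericentral hepatocytes, had 0.22 (SE 0.14, adjusted p = 0.364).

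Of 17 transporters of substrates and products 1 was tested, the aspartate and glutamate carrier Slc25a12, with -0.35 (SE 0.24, edgeR adjusted p = 0.393). The transporters' summed level was 152 to 426 normalised CPM in ligated and 64.1 to 120 in sham animals of day 15. Among those not tested, Slc7a2 had 105 and 7 counts over the ligated and sham animals of day 15, and Slc38a3 84 and 3. Slc14a1 went the other way, with 13 and 23. Of 14 deacylases and transcription factors linked to the cycle, 3 were tested, 0 were called higher and 1 lower, where 3.45% of all tested genes were called lower. That gene was Foxo1, a transcription factor restrained by insulin, which fell by 0.64 (SE 0.16, edgeR adjusted p = 0.0105). Among those not tested, Hnf4a had 109 and 0 counts over the ligated and sham animals of day 15, and 29 and 3 at day 8. Sirt5 had 2 and 5 at day 15.

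Most markers of the ends of the liver lobule were too low to be tested. Of 16 periportal genes 2 were tested and both were called, among them Pigr, the receptor that carries immunoglobulin A into bile, by 6.86 (SE 0.69, edgeR adjusted p = 4.85e-07). Of 16 pericentral genes 4 were tested and 2 were called: Cyp2e1 by 2.40 (SE 0.69, adjusted p = 0.0233) and the retinal dehydrogenase Aldh1a1 by 0.82 (SE 0.20, adjusted p = 0.00721). The other two were Glul, given above, and the ornithine enzyme Oat with 0.05 (SE 0.18, adjusted p = 0.901). At day 15 the periportal genes summed to 203 to 1153 normalised CPM in ligated and 3.71 to 67.5 in sham animals, and the pericentral genes to 362 to 918 and 213 to 352. Of the 441 pericentral counts in sham animals of day 15, Glul made 230, Oat 95 and Aldh1a1 87, so the sums do not compare the zones. Other pericentral genes had few sham counts: at day 15 Cyp2e1 had 173 and 13 over the ligated and sham animals. Cyp2c29 had 52 and 0 and Cyp7a1 49 and 0, but Axin2 had 11 and 12. A difference between the zones was not tested.

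Markers of other cell types that can hold urea cycle transcripts were measured in the same libraries. The 15 small intestine genes summed to 75.3 to 140 normalised CPM in ligated and 0 to 17.1 in sham animals of day 15, and to 8.83 to 86.0 and 1.33 to 17.6 at day 8. None passed the count filter, Fabp2 had 36 and 0 counts at day 15, and Defa24 was at 0 in all libraries. The 14 kidney tubule genes summed to 8.03 to 43.9 in ligated and 0 to 39.1 in sham animals of day 15, and Slc34a1, Miox and Kap were at 0 in all libraries. Of 17 macrophage and monocyte genes 6 were tested and 4 were called higher, among them Ccr2 by 1.95 (SE 0.30), Tyrobp by 0.74 (SE 0.17) and Chil3 by 1.71 (SE 0.45). By day, 3 of the 6 tested were called higher at day 8 (median 0.95) and 1, Ccr2, at day 15 (median 0.61). Among all filtered genes 2.77% and 3.53% were called higher at these days. The sum of the 17 genes at day 15, 539 to 821 in ligated and 270 to 1212 in sham animals, overlapped between groups. The part of these cells in the Arg1 counts was not tested.

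Of the remaining lists, 6 of 11 tested erythroid genes were called higher, among them Epb42 (1.49, SE 0.34) and Slc4a1 (1.16, SE 0.30). By day, 8 of these 11 were called higher at day 8 (median 1.08) and 0 at day 15 (median -0.03). Among all filtered genes 2.77% were called higher at day 8 and 3.53% at day 15. The neutrophil list had 1 of 7 called higher (Lcn2 by 2.26, SE 0.45). By day it had 2 of 7 at day 8 (median 1.77) and 0 at day 15 (median -0.58). The bile duct list had 2 of 4, the keratins Krt8 by 4.35 (SE 0.66) and Krt18 by 3.32 (SE 0.60). Its other 2 tested genes were not called, Krt19 with 1.49 (SE 0.56, edgeR adjusted p = 0.0898) and Spp1 with 0.00 (SE 0.51, adjusted p = 0.999). The platelet list had 0 of 12 called, with Ppbp at 0.07 (SE 0.29) and Pf4 at 0.39 (SE 0.22). The endothelial list had 0 of 8 called higher and 1 lower, Kdr, which fell by 0.64 (SE 0.20). The part of these cell types in the values of the 6 enzymes was not tested.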

How the data were processed

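RNA of plasma extracellular vesicles was sequenced in 24 libraries. The authors deposited a table of expected counts per gene, made with STAR and RSEM per the submitters' processing notes, with no versions listed. All values were whole numbers. Those notes list a human build (hg38), but the rows are mouse Ensembl identifiers, which leaves the build behind the counts unsettled. Coordinates come from GENCODE (GRCm38) by identifier. Groups and animal numbers follow the sample titles, with which the treatment labels agree in group, although the treatment protocol text names ligation for the sham samples as well.

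Counts were filtered (filterByExpr, minimum count 10, minimum total 15), scaled by TMM and then fitted in edgeR 4.0.16 (R 4.3.3), using a quasi-likelihood F-test with 1 mean per group, adjusted by Benjamini-Hochberg over all genes at a threshold of 0.05. Genes below the filter came from the same model without it. DESeq2 1.42.0 and two-sided exact permutation tests of log2(normalised CPM + 1), made in Python 3.11.15 and permuting groups within days, were alternatives, and the latter and the unfiltered DESeq2 model were chosen after seeing the data. The edgeR and permutation code was tested on simulated data. Count ratios carry exact 95% intervals. Reads have no molecular identifiers, so intervals and floors cover counting error only. Libraries of a group differed beyond sampling noise (chi-square per degree of freedom at least 1.66).

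The members and lists were chosen with earlier results of these data known. Named genes were the 6 members, in each list up to 3 called genes with the smallest p in the averaged effect (or the 2 most abundant tested genes where none was called), markers at 0 and the 5 genes most like a member. Arg2, Glul, Oat, Fabp2, Krt19, Spp1, Alb, C3, Hnf4a, Sirt5, Slc7a2, Slc38a3, Slc14a1, Cyp2c29, Cyp7a1 and Axin2 were named outside this rule, after their values were seen. A few genes that the rule names are left out of the text. The lists share 8 genes. Deviations from the group means were compared between ligated and sham animals sharing a number. They correlated by 0.165 to 0.327 at day 8 (6 of 6 over 0.1) and by -0.0309 to 0.113 at day 15 (1 of 6). Depth at day 8 also went with the number in both groups, so the correlation cannot tell paired animals from shared depth. The main model used no pairing, and the number entered as a block only in an alternative. Promoter sequences were matched by symbol for 3 of the 6 genes.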

Additional observations from a re-analysis of the deposited data

Results flagged for a closer look

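Levels of each enzyme in each group of 6 animals were checked for a single animal far from the rest, as the gap to its neighbour over the range of the group, against Dixon's critical value of 0.625 for 6 values. Of 24 groups, 11 held such an animal, where chance flags about 1 in 20 groups of normally distributed values. Groups with all animals at 0 could not be flagged. These were Otc in both sham groups, Arg1 in the sham animals of day 15 and Nags in those of day 8. Where 5 of 6 animals are at 0 the ratio is 1.0 by construction. This held for Cps1 in sham animal 6 of day 8 (1.0) and in sham animal 4 of day 15 (1.0), for Arg1 in sham animal 6 of day 8 (1.0) and for Nags in sham animal 3 of day 15 (1.0, from 1 count). Ligated animal 5 of day 15 stood above its group for Cps1 (0.719) and Ass1 (0.772). Ligated animal 3 of day 8, which had the highest hepatocyte level of its group (8486 normalised CPM), stood above it for Ass1 (0.659), Otc (0.74) and Arg1 (0.811). Ass1 was also high in sham animal 1 of day 8 (0.804, from 4 counts), and Nags in ligated animal 2 of day 8 (0.802, from 1 count).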

How the results depend on the processing

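The averaged effect called 434 genes, and 1041 without a filter, 215 with a minimum count of 30 and 348 to 551 with 1 library left out. Of the enzymes, 2 were called higher with the filter, 5 without it and 0 with a minimum count of 30, at which none of the 6 was tested. Cps1 and Ass1 were called with other scaling, DESeq2, a depth term, a replicate block (3.37 and 2.32) and any 1 library left out of the edgeR fit. All of these calls hold the days used to pick the pair and add no support for it. Day 8 called 129 genes, and 298 without a filter, 203 with the replicate block, 84 from the 12 libraries of that day, 76 and 31 from libraries 1 to 3 and 4 to 6 alone, and 58 (without sham animal 4) to 159 with 1 library left out. It also fell by over 1.5 times without ligated animal 2 (74) and sham animals 2 (82), 3 (84) and 5 (59). Day 15 called 189, and 688 without a filter, 89 with a minimum count of 30 and 117 (without ligated animal 5) to 261 with 1 library left out. The difference between days called 0, and 51 without a filter, 1 each with DESeq2, the replicate block and the depth term, and 0 to 2 with 1 library left out. Sham animals over time called 0 genes (439 at unadjusted p under 0.05), 150 without a filter, 5 with DESeq2 and 0 to 1 with 1 library left out. Cps1 at day 8 changed sign without ligated animal 3 (-0.24) and sham animals 4 (-0.13) and 5 (-0.084), in a range of -0.24 to 4.66 with 1 library left out. Its change over time in sham animals, -1.74, changed sign without sham animal 6 of day 8 (2.72), in a range of -4.52 (without sham animal 4 of day 15) to 2.72. The Cps1 values without either of these sham animals were fitted with a sham group at 0 and are no bounds. Asl at day 8 changed sign without ligated animals 4 (-0.21) and 6 (-0.078) and sham animal 4 (-0.13), in a range of -0.21 to 0.36. Its change over time in sham animals did so without sham animals 1, 4 and 5 of day 15 (0.058, 0.017 and 0.065) and 2 of day 8 (0.036), in a range of -0.79 to 0.065. The cause was not tested. The averaged call of Asl was also lost with TMMwsp scaling (adjusted p = 0.0585) and without ligated animal 5 of day 15 (0.185). At these depths 1 count is about 1 to 10 CPM, so Otc and Nags are near the limit of detection.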
